A study of Homo sapiens with 6 samples.

Results

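Kinesins are the motor proteins that turn ATP into movement along microtubules. The 42 transcripts described here were taken from the deposited array table by name: every symbol that begins with KIF and a digit, together with KIFC1, KIFC2 and KIFC3, on probe sets the platform annotation gives to a single gene. They were carried by 105 of the 49193 probe sets, and each gene was read from the set with the highest mean over the 6 arrays, which left 42 of 18129 genes. By role they were 13 mitotic kinesins, 15 transport kinesins, 13 kinesins of other or mixed function, and KIF25-AS1, an antisense transcript that the naming rule takes in and that encodes no motor. KIF4B shares its only probe set with KIF4A and was not counted as a gene.

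All samples were UMUC3-c31 cells, whose name points to UMUC3, an established line from a human bladder carcinoma. Cells spent 24 h in serum stripped of steroids with charcoal and then 24 h with ethanol vehicle (3 arrays) or with 10 nM of the synthetic androgen R1881 (3 arrays), so both groups were steroid-depleted first. The design text calls the 3 samples of a group biological replicates. How c31 was derived, and whether it is 1 clone, is not stated in the labels. Values are log2 intensities as the authors normalized them, and a change is the R1881 mean minus the vehicle mean.

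During cell division kinesins build the bipolar spindle, align chromosomes and complete cytokinesis, and most genes of this group are transcribed mainly in the G2 and M phases. Outside mitosis other kinesins carry vesicles, mitochondria, endosomes and ciliary components, usually toward the plus ends of microtubules, and many of them are made throughout the cell cycle or mainly in neurons. Many G2/M genes carry a CCAAT box, bound by NF-Y, and a cell cycle homology region (CHR), bound by the MuvB complexes that repress them in resting cells and activate them before mitosis.

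Promoter letters were set beside the expression values as a description. The letters do not depend on those values, but the genes were chosen with earlier results of these data known. The promoters are therefore not a separate line of evidence on R1881. RefSeq promoters (GRCh38.p14, 250 bases before to 50 after each annotated start) were found for all 13 mitotic, 11 of 15 transport and 9 of 13 other kinesins. The CHR was searched as TTTGAA or TTCGAA and the CCAAT box as CCAAT, each on both strands, so that they also appear as TTCAAA and ATTGG. The 80 bases before the start are shown for 7 mitotic and 2 transport kinesins, 5′ to 3′ along the gene, with capitals marking matches to these motifs and, in KIF15 alone, to the E2F form TTTGGCGC read on the other strand, which abuts the CHR. KIF23, KIF22, KIF15 and KIF18A are among the mitotic kinesins with the lowest changes, as is KIF20B, which is not shown. KIF11 and KIF4A are mitotic genes that moved little on their brightest sets, KIF20A has no CHR form, and KIF5B and KIF3A carry cargo.
KIF23 (chr15:69414269-69414348, plus strand): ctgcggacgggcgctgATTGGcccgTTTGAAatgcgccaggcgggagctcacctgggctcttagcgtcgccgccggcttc
KIF22 (chr16:29790671-29790750, plus strand): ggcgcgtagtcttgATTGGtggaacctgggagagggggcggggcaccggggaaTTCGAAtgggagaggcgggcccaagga
KIF15 (chr3:44761714-44761793, plus strand): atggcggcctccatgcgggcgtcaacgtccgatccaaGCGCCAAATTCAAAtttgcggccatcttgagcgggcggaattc
KIF18A (chr11:28108157-28108236, minus strand): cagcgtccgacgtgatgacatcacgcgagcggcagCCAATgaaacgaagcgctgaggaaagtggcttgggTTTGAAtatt
KIF11 (chr10:92593050-92593129, plus strand): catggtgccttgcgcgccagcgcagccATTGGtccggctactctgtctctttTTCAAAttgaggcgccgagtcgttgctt
KIF4A (chrX:70290024-70290103, plus strand): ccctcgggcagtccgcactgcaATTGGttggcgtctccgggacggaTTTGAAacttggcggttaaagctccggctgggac
KIF20A (chr5:138179032-138179111, plus strand): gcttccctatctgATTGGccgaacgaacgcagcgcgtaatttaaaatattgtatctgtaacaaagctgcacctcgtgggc
KIF5B (chr10:32056426-32056505, minus strand): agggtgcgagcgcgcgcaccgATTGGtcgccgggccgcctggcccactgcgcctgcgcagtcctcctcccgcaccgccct
KIF3A (chr5:132737547-132737626, minus strand): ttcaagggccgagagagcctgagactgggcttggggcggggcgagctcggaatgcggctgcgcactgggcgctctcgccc

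A CHR form lay in the promoters of 10 of 13 mitotic kinesins, against 1 of 11 transport kinesins (KIF5B, at position -140 from the start), 1 of 9 other kinesins (KIF24) and 19.5% of the 27305 genes in the promoter table. A CCAAT box lay in 10 of 13, 4 of 11 and 3 of 9, against 39.7% of genes in the table. Both together were found in 9 of 13 mitotic kinesins and in 7.85% of all genes. KIF22 and KIF15 were the mitotic promoters with a TTCGAA form and with an E2F form, respectively. The letters AGAACA, the hexamer shared by androgen and glucocorticoid response elements, occurred in these windows only in KIF2B among mitotic kinesins and in KIF1A and KIF1C among transport kinesins, against 17.5% of genes. These are matches of letters in a window, not binding measurements, and a window without a match says nothing of elements elsewhere.

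**Figure D1:**
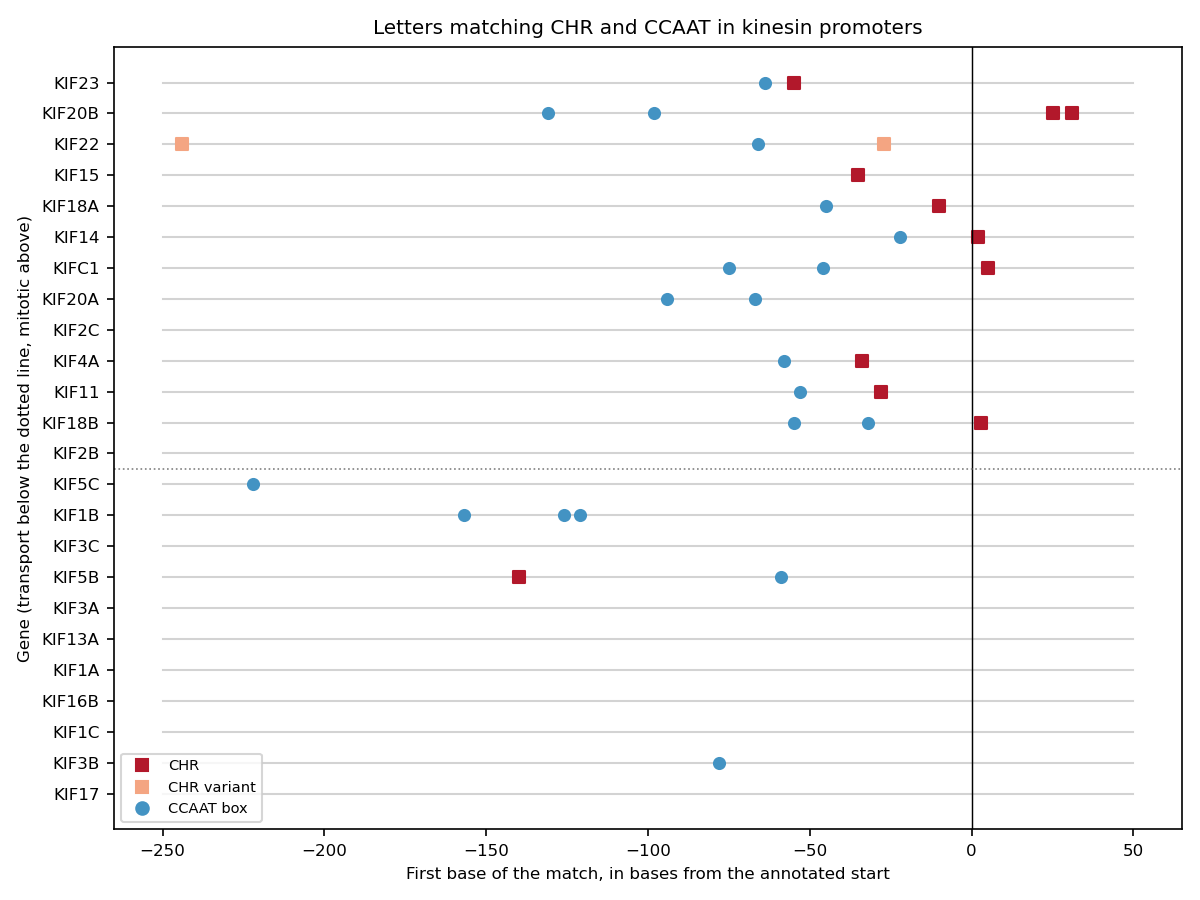
Position of letters matching the CHR (squares) and the CCAAT box (circles) in promoters of 13 mitotic (above the dotted line) and 11 transport kinesins, in bases from the annotated start; matches from all annotated starts of a gene share its line. CHR forms lie in 10 mitotic promoters, most of them close to the start, and in 1 transport promoter.

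The mitotic kinesins as a group stood lower with R1881, by small amounts. Their median change was -0.14, where the median of all genes was 0, and it was -0.15 over the 12 members above background. Background was taken as 4.99 on the log2 scale, the level below which 90% of olfactory receptor and keratin-associated protein genes lay. Of the 13 genes, 11 were lower by sign, against 48.7% of all genes. In 9 of the 13 every R1881 array lay below every vehicle array, which held for 9.93% of all genes. A single gene, KIF23, passed the limma test after Benjamini-Hochberg adjustment over all genes, none passed upward, and 12 did not pass. Of all genes 0.816% were called lower and 1.60% higher. At an unadjusted p under 0.05, 8 of the 13 were lower and none higher, against 7.19% of all genes lower. Among all genes above background the shares were higher: 51.6% were lower by sign, 14.8% apart downward and 10.3% lower at that unadjusted p. The members were chosen with earlier results of these data known, so these shares describe the group and no p is attached to it. In bulk RNA a smaller share of cells in G2 and mitosis and less transcript per such cell cannot be told apart.

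The group shift was seen on each treated array. Over the 12 members above background, the median distance from the vehicle mean was -0.145, -0.175 and -0.133 on R1881 replicates 1, 2 and 3, and -0.025, 0.005 and 0.025 on vehicle replicates 1, 2 and 3. No R1881 array therefore came within the range of the vehicle arrays. The same medians for 13 transport kinesins lay between 0.00 and 0.01 on the R1881 arrays and between -0.02 and 0.01 on the vehicle arrays, where the groups overlap. The mitotic median minus the transport median was -0.16, and this difference kept its sign with any 1 array left out (-0.150 to -0.125).

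**Figure D2:**
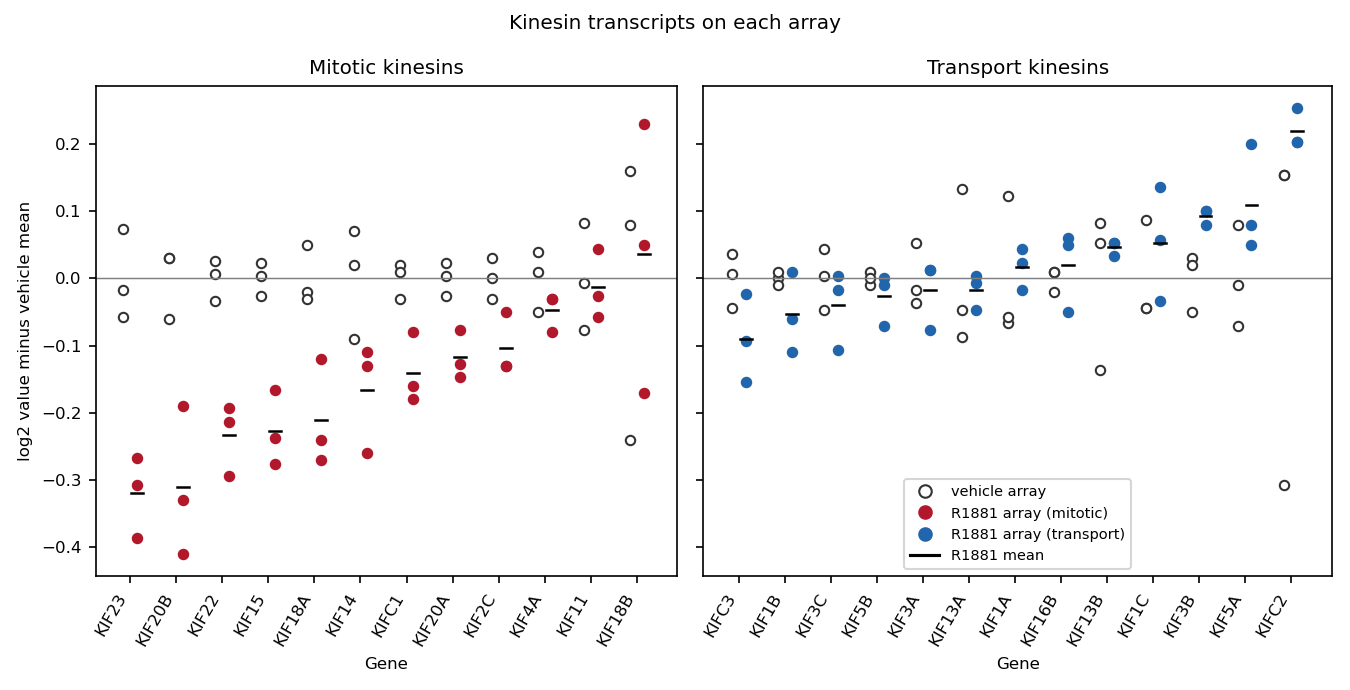
Log2 value of each array minus the vehicle mean of the same gene (y axis) for 12 mitotic and 13 transport kinesins above background; open circles are the 3 vehicle arrays, filled circles the 3 R1881 arrays and short lines the R1881 means. The R1881 arrays of KIF23, KIF20B, KIF22, KIF15 and KIF18A all lie below the vehicle arrays, while those of most transport kinesins overlap them.

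The largest differences among the mitotic kinesins were in KIF23 and KIF20B. KIF23, or MKLP1, joins RACGAP1 in the centralspindlin complex that bundles midzone microtubules and positions the cleavage furrow. It read 9.67, 9.63 and 9.76 on the vehicle arrays and 9.30, 9.42 and 9.38 with R1881. The groups were clearly apart, by more than either group's spread. It fell by 0.32 ± 0.06 (SE, n = 3 per group) on the log2 scale, to 0.801 times the vehicle level (95% confidence interval 0.732 to 0.877), with a limma adjusted p of 0.0341. That call is close to the threshold: the change stayed between -0.35 and -0.28 with any 1 of the 6 arrays left out, but the adjusted p then rose to between 0.0816 and 0.128. On its dimmer probe set KIF23 stood at -0.21 ± 0.07, with an adjusted p of 0.275 in the fit over all probe sets, where the brighter set had 0.0529.

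KIF20B, a plus-end motor of the late midzone and midbody, read 8.37, 8.46 and 8.46 with vehicle and 8.02, 8.24 and 8.10 with R1881. Its difference of -0.31 ± 0.07 was nearly that of KIF23, but the R1881 arrays were more spread and its adjusted p was 0.0745. KIF14, which binds PRC1 and citron kinase at the midbody, read 8.05, 8.21 and 8.16 against 8.01, 8.03 and 7.88. The gap between its groups was narrow, from 8.03 to 8.05, and the change was -0.17 ± 0.06 (adjusted p = 0.304). On the other KIF14 set the groups overlapped, at -0.14 ± 0.08 (adjusted p = 0.538 over all probe sets). KIF20A, or MKLP2, which brings the chromosomal passenger complex to the midzone, read 10.34, 10.32 and 10.29 against 10.24, 10.19 and 10.17. Its change of -0.12 ± 0.04 was small and its arrays tight (adjusted p = 0.288).

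Motors acting on chromosomes and kinetochores covered a range of values. KIF22, or Kid, a DNA-binding kinesin that pushes chromosome arms outward, read 8.30, 8.28 and 8.24 with vehicle and 8.06, 7.98 and 8.08 with R1881, and stood at -0.23 ± 0.05 (adjusted p = 0.0609). On its other sets, at -0.19 ± 0.07 and -0.16 ± 0.10, the groups were not apart (adjusted p of 0.326 and 0.548 over all probe sets). KIF18A, which sits at kinetochore microtubule plus ends and damps chromosome oscillation, read 8.63, 8.62 and 8.70 against 8.38, 8.41 and 8.53, a change of -0.21 ± 0.06 (adjusted p = 0.140). KIF2C, or MCAK, a microtubule depolymerase that corrects faulty attachments, read 9.98, 9.95 and 10.01 against 9.85, 9.85 and 9.93. On their brightest sets the groups of all of these were apart, but the KIF2C change of -0.10 ± 0.05 had a confidence interval reaching 0.00 (adjusted p = 0.369). On the other KIF2C set the groups overlapped, at 8.97, 8.92 and 8.87 against 8.91, 8.91 and 8.84 (-0.03 ± 0.05). KIF4A, a chromokinesin that also shortens midzone microtubules with PRC1, read 8.66, 8.75 and 8.72 against 8.68, 8.68 and 8.63. Its groups overlapped, with a change of -0.05 ± 0.05 and an interval of -0.15 to 0.06, and the set it shares with KIF4B stood at -0.02 ± 0.05. KIF18B, which limits astral microtubules, was the noisiest mitotic member, at 6.67, 7.07 and 6.99 against 6.96, 6.74 and 7.14. Its change of 0.04 ± 0.13 has an interval of -0.28 to 0.35, which holds the change of KIF22 (-0.23) but not that of KIF23. The KIF18B change was -0.08 without vehicle replicate 1. KIF2B lay below background in both groups, with means of 2.84 and 2.93.

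The motors that set up the bipolar spindle covered a range too. KIF15, which can keep the poles apart alongside KIF11, read 7.61, 7.59 and 7.56 with vehicle and 7.42, 7.31 and 7.35 with R1881. The groups were apart and the change was -0.23 ± 0.05 (adjusted p = 0.0667). KIFC1, or HSET, a minus-end motor that focuses spindle poles and gathers extra centrosomes, read 8.61, 8.66 and 8.65 against 8.48, 8.46 and 8.56, a change of -0.14 ± 0.05 (adjusted p = 0.239). KIF11, or Eg5, the main motor that pushes the poles apart, read 10.26, 10.33 and 10.42 against 10.38, 10.31 and 10.28. On this set the groups overlapped, with a change of -0.01 ± 0.06 (interval -0.15 to 0.12). Its other set, an x set whose probes can match several transcripts, read 8.36, 8.34 and 8.44 against 8.16, 8.25 and 8.21. There the groups were apart and the change was -0.17 ± 0.05, with an adjusted p of 0.236 over all probe sets. The 2 sets of KIF11 thus give different pictures of the same gene, and the difference between them was not tested.

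**Figure D3:**
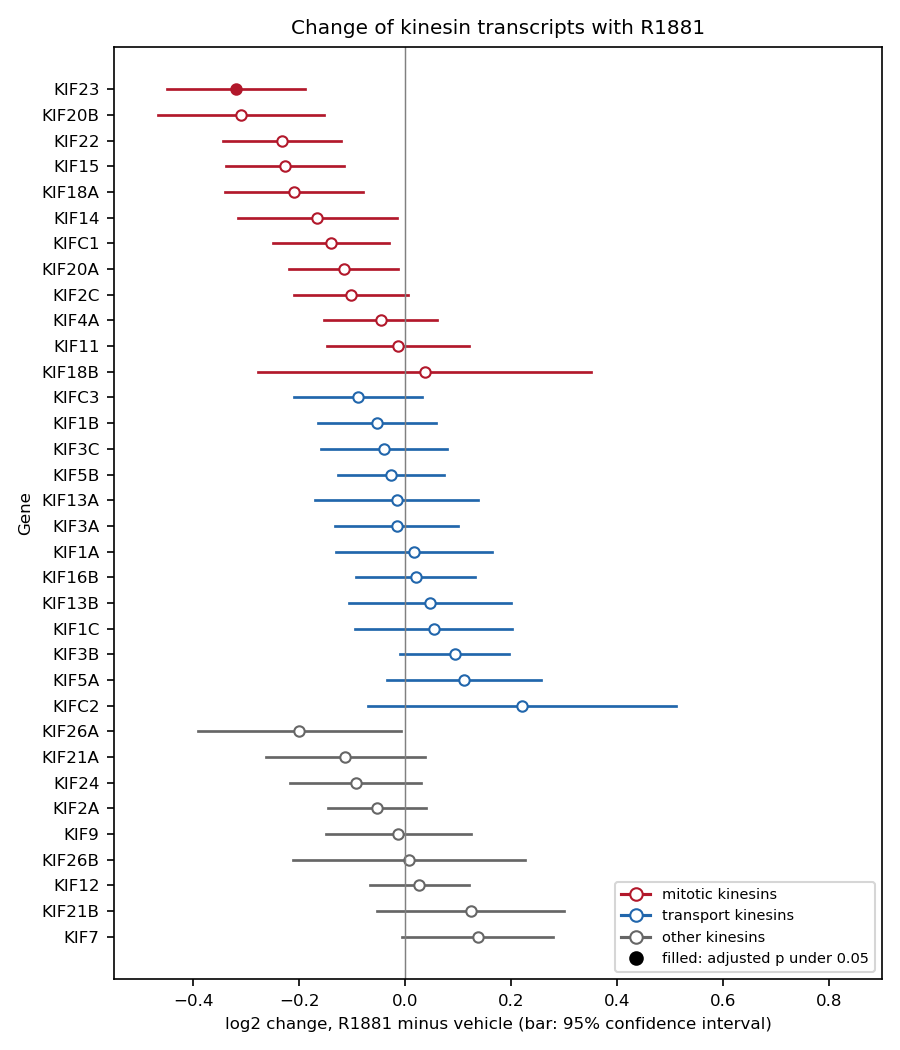
Log2 change with R1881 (points) and 95% confidence interval (bars) of 34 kinesin genes above background, with mitotic kinesins at the top, transport kinesins in the middle and other kinesins at the bottom; a filled point has an adjusted p under 0.05. Only KIF23 is filled, and 8 mitotic intervals lie wholly below 0.

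CHR letters were found both in the mitotic kinesin genes with the lowest changes and in some that moved little. The 10 genes with a CHR form ran from -0.32 (KIF23) to 0.04 (KIF18B) and include the genes with the lowest changes, from KIF23 to KIFC1 (-0.14). The 3 without one were KIF20A (-0.12), KIF2C (-0.10) and KIF2B (0.09), which lay below background. KIF4A and KIF11 carry a CHR and a CCAAT box close to the start like KIF23 and KIF22, in the sequences shown above. They differ from them in their values on the brightest sets, but the other KIF11 set stood at -0.17.

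Transport kinesins showed no change past the threshold. None of the 15 passed the limma test in either direction, where 2.42% of all genes did, and none had an unadjusted p under 0.05. Their median change was 0.02, with 7 lower and 8 higher by sign, and 13 lay above background. The conventional kinesin heavy chain gene KIF5B, the motor of vesicles and mitochondria in most cells, read 10.85, 10.83 and 10.84 with vehicle and 10.83, 10.84 and 10.77 with R1881. Its change of -0.03 ± 0.04 has an interval of -0.13 to 0.07, which does not reach the value of KIF23, KIF20B, KIF22, KIF15 or KIF18A. KIF5A, a heavy chain known mainly from neurons, read 5.04, 4.89 and 4.95 against 5.04, 5.16 and 5.01, close to background, with a change of 0.11 ± 0.06. KIF5C, its neuronal relative, lay below background, with means of 4.68 and 4.62.

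None of the kinesins of the heterotrimeric motor that also drives intraflagellar transport passed by gene. KIF3A read 8.43, 8.41 and 8.50 with vehicle and 8.46, 8.46 and 8.37 with R1881, a change of -0.02 ± 0.05 with overlapping groups. KIF3B, its partner, read 9.26, 9.34 and 9.33 against 9.41, 9.41 and 9.39. All 3 R1881 arrays of KIF3B were higher, but the change was 0.09 ± 0.04 with an adjusted p of 0.391. All 4 KIF3B probe sets were higher with R1881, by 0.08 to 0.40. The dimmest of them read 5.06, 5.15 and 5.28 against 5.51, 5.58 and 5.60, not far above background, and rose by 0.40 ± 0.07 with a limma adjusted p of 0.0398 over all probe sets. It was the only one of the kinesin probe sets to pass there, and it did not pass with any 1 of the 6 arrays left out (adjusted p of 0.0544 to 0.173). KIF3C, the third relative, read 7.47, 7.52 and 7.56 against 7.52, 7.50 and 7.41 (-0.04 ± 0.05). KIF17, which acts in dendrites and cilia, lay below background, with means of 4.85 and 4.98.

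Among carriers of vesicles and endosomes, KIF1B, which moves mitochondria and synaptic vesicle precursors, read 9.47, 9.48 and 9.46 with vehicle and 9.48, 9.36 and 9.41 with R1881, with a change of -0.05 ± 0.05. KIF1C, a fast carrier of secretory vesicles, read 8.40, 8.53 and 8.40 against 8.41, 8.50 and 8.58 (0.05 ± 0.06). KIF16B, which carries early endosomes, read 7.19, 7.16 and 7.19 against 7.24, 7.23 and 7.13 (0.02 ± 0.05). In these 3 genes the groups overlapped. KIF13B, known as GAKIN, read 6.18, 6.40 and 6.37 against 6.37, 6.35 and 6.37 (0.05 ± 0.07), with vehicle replicate 1 standing low. KIF13A and KIF1A lay close to background: KIF13A read 5.13, 4.91 and 4.95 against 4.99, 4.95 and 5.0. KIF1A, the carrier of synaptic vesicle precursors, read 5.26, 5.45 and 5.27 against 5.35, 5.31 and 5.37, and both changes were 0.02 or less in size.

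Neither of the minus-end motors of this class passed the threshold. KIFC3, which acts in apical transport and at adherens junctions, read 8.95, 8.98 and 8.90 with vehicle and 8.79, 8.92 and 8.85 with R1881, a change of -0.09 ± 0.05 with overlapping groups. Its other 5 probe sets lay nearer to 0, between -0.01 and 0.06. KIFC2, described mainly in neurons, read 6.38, 6.84 and 6.84 against 6.89, 6.94 and 6.89. All R1881 arrays of KIFC2 lay above the vehicle arrays, but vehicle replicate 1 stood far below the other vehicle arrays. Its change was 0.22 ± 0.12 (adjusted p = 0.469), and 0.07 without that array. KIFC2 and KIF3B were the 2 of 15 transport kinesins whose R1881 arrays all lay above the vehicle arrays, as held for 8.53% of all genes.

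**Figure D4:**
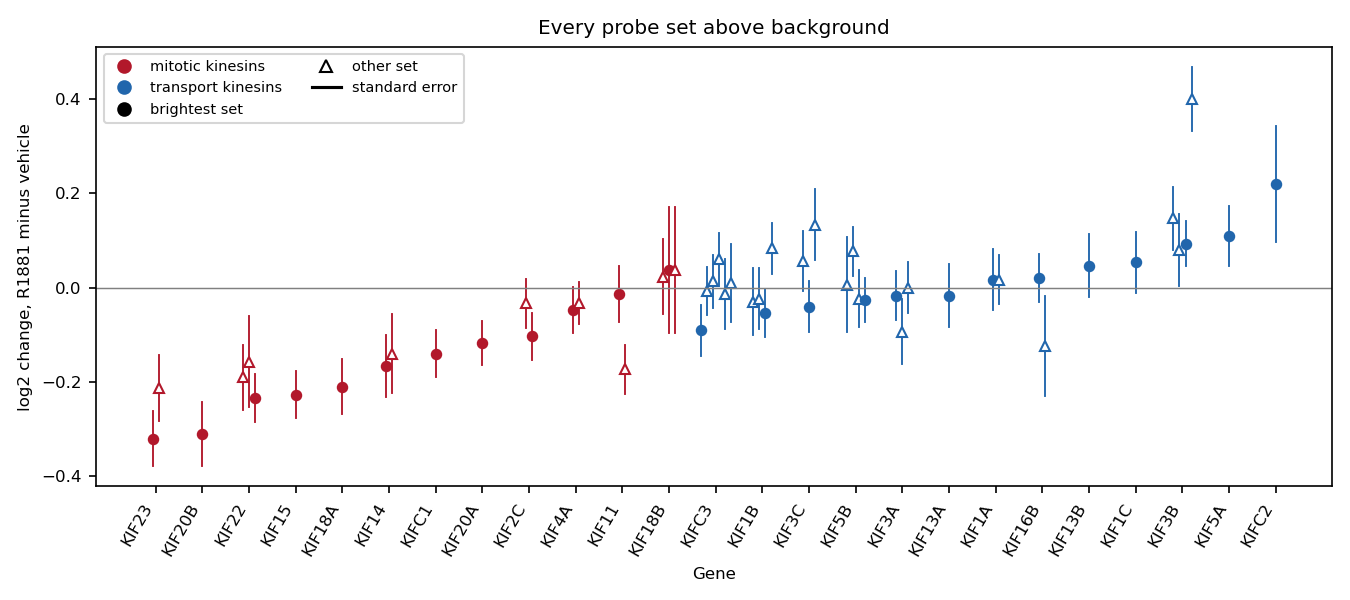
Log2 change with R1881 on every probe set above background of the mitotic and transport kinesins (y axis; bars are standard errors), with the brightest set of a gene as a filled circle and its other sets as open triangles. Of 21 mitotic sets 18 lie below 0, and the highest point is the dimmest KIF3B set at 0.40.

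Read over probe sets in place of genes, the difference between the classes was alike. Of 21 mitotic sets above background 18 were lower with R1881, with a median of -0.14, and of 33 transport sets 13 were lower, with a median of 0.01. Sets of a gene share its RNA and are not independent, and 2 of the 4 KIF18B sets held identical values. No mitotic set passed limma's threshold when all 49193 sets were tested.

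None of the 13 kinesins of other or mixed function passed the limma test, where 2.42% of all genes did, and their median change was 0.01. At an unadjusted p under 0.05, 1 was lower, close to the 7.19% of all genes. That gene was KIF26A, a family member without motor ATPase activity, at -0.20 ± 0.08 with an adjusted p of 0.333. Its vehicle arrays read 7.37, 7.44 and 7.65 and its R1881 arrays 7.20, 7.33 and 7.33. Without vehicle replicate 3 its change was -0.12. KIF2A, a depolymerase of neurons and of spindle poles, read 7.88, 7.86 and 7.87 against 7.81, 7.83 and 7.81, so that its groups were apart by a small margin (-0.05 ± 0.04). KIF21A stood at -0.11 ± 0.06, KIF24, which restrains cilium formation, at -0.09 ± 0.05, and KIF9 at -0.01 ± 0.06. On the upper side were KIF7, a regulator of Hedgehog signalling at the cilium tip, at 0.14 ± 0.06, KIF21B at 0.12 ± 0.07, KIF12 at 0.03 ± 0.04 and KIF26B at 0.01 ± 0.09. KIF6, KIF19, KIF25 and KIF27 lay below background, with group means between 3.08 and 4.75. The antisense transcript KIF25-AS1 had means of 5.36 and 5.59 with wide spread (0.23 ± 0.15).

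Genes of proteins that work with the mitotic kinesins also mostly stood lower with R1881. Of 34 partners and regulators, all above background, 32 were lower by sign, with a median of -0.12, and in 22 the groups were apart downward. Of all genes above background 51.6% were lower by sign and 14.8% apart downward, with a median of -0.01. By limma 1 of the 34 fell, none rose and 33 did not pass, where 0.816% of all genes fell. The gene called lower was NUF2, part of the kinetochore complex that binds microtubules. It read 9.69, 9.76 and 9.81 with vehicle and 9.51, 9.47 and 9.38 with R1881 (-0.30 ± 0.06, adjusted p = 0.0429). Like that of KIF23, the NUF2 call is close to the threshold, and NUF2 was not followed in the fits with an array left out. RACGAP1, the partner of KIF23 in centralspindlin, read 10.39, 10.44 and 10.53 against 10.25, 10.33 and 10.25 (-0.18 ± 0.05). ECT2, which centralspindlin recruits to the midzone, stood at -0.23 ± 0.05, survivin (BIRC5) at -0.20 ± 0.04 and cyclin B1 (CCNB1) at -0.19 ± 0.04, with adjusted p of 0.0560, 0.0647 and 0.0774. The kinetochore kinesin CENPE, which the naming rule leaves out, was 1 of the 2 that were higher by sign, at 0.06 ± 0.06. It read 8.08, 7.96 and 7.90 against 8.08, 8.02 and 8.02, so its groups overlapped. The transcription regulators in the list were mixed. LIN9 stood at -0.28 ± 0.07 with its groups apart (adjusted p = 0.110). The groups overlapped for FOXM1 (-0.03 ± 0.11), E2F1 (-0.06 ± 0.10), E2F4 (-0.06 ± 0.05) and MYBL2 (0.02 ± 0.04).

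For partners of the transport kinesins, other microtubule motors and the tracks themselves, counts of calls are read against the 2.42% of all genes called in either direction. Of 25 measured adaptors and cargo linkers none passed, with a median of 0.01. The smallest p belonged to TRAK1, which links mitochondria to kinesin, at -0.20 ± 0.04 (adjusted p = 0.0858), and to SYBU, or syntabulin, an adaptor for syntaxin vesicles, at 0.31 ± 0.07 (adjusted p = 0.0940). KIFAP3, the accessory subunit of KIF3A and KIF3B, stood at 0.04 ± 0.06, and the light chain gene KLC1 at -0.03 ± 0.04. Of 27 cytoplasmic dynein and dynactin genes 1 passed: the light chain gene DYNLL2 rose from 7.54, 7.65 and 7.62 to 7.94, 7.90 and 7.93, by 0.32 ± 0.05 (adjusted p = 0.0173). None of 23 tubulins and microtubule regulators and none of 19 intraflagellar transport genes passed. At an unadjusted p under 0.05, 4 of the 23 were higher and none lower, and of the 19 genes 1 was higher and 1 lower, where 7.07% of all genes were higher and 7.19% lower. Among the tubulins TUBA1A stood at 0.17 ± 0.05 and TUBB2A at 0.14 ± 0.05.

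Other properties of the arrays bear on these values. The array medians were 5.49 to 5.51. On the second principal component, with 19.6% of the variance, vehicle replicate 1 (11.0) stood opposite vehicle replicates 2 and 3 (-8.2 and -7.0). R1881 replicate 1 lay on the same side as vehicle replicate 1 (5.7, against -0.67 and -0.87 for R1881 replicates 2 and 3). Without vehicle replicate 1 the mitotic median was -0.155. The urothelial and epithelial markers were present only in part. KRT18, KRT8 and KRT7 were above background. So were UPK3B (means of 5.34 and 5.35 with vehicle and R1881) and, barely, UPK1A (5.03 and 5.08). GATA3 (4.91 and 5.02) and FOXA1 (5.01 and 4.87) were above it in a single group. UPK2, UPK3A, KRT5, KRT20, CDH1 and EPCAM were among the markers below it in both groups, 10 of 17 in all. By limma 1 of these 17 markers fell and 1 rose, where 0.816% of all genes fell and 1.60% rose. Both changes were larger in size than that of KIF23. KRT18, a keratin of simple epithelia, read 10.72, 10.79 and 10.73 with vehicle and 10.41, 10.33 and 10.39 with R1881 (-0.37 ± 0.05, adjusted p = 0.0083). KRT7, another keratin of simple epithelia, read 5.35, 5.47 and 5.47 against 5.89, 5.86 and 5.74 (0.40 ± 0.06, adjusted p = 0.0192). Both were apart between the groups, and their part in the kinesin values was not tested. Of 11 immune and endothelial, 10 fibroblast and 10 neuronal markers, 3 each lay above background. None was called by limma, where 2.42% of all genes were. Well above background were CD68 (means of 8.93 and 8.69 with vehicle and R1881), THY1 (8.13 and 8.37) and ACTA2 (7.36 and 7.31). SNAP25 (8.09 and 8.03), SYP (7.23 and 7.25) and GAP43 (7.03 and 7.08) were too. THY1 stood at 0.24 ± 0.07 with its groups apart, and CD68 at -0.24 ± 0.10 with overlapping groups. Mean levels over these lists, most of whose members were dim, spanned 4.25 to 4.32 and 4.27 to 4.31 for the immune and endothelial list. They spanned 4.49 to 4.58 and 4.51 to 4.55 for the fibroblast list. For the neuronal list they spanned 4.863 to 4.915 and 4.920 to 4.976, so the groups did not overlap. The part of other cell types in the kinesin values was not tested.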

How the data were processed

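Total RNA of 6 samples was labelled with biotin and hybridised to Affymetrix arrays, per the labels. The deposited table holds log2 values that the authors made with RMA, per the submitters' processing notes, which corrects background, quantile-normalizes arrays and summarises each probe set. No version or filter is stated. Quantile normalization would remove a shift common to all genes. Values are rounded to 2 decimals. Scanner files were not used here. The number of arrays, 3 per group, limits the precision.

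Of 49193 probe sets, 44898 had 1 gene symbol, 1825 several and 2470 none. A gene was read from its set with the highest mean, which gave 18129 genes. R1881 was compared with vehicle with limma 3.58.1 in R 4.3.3 (lmFit and eBayes, no trend, two-sided), with Benjamini-Hochberg adjustment over all genes at a threshold of 0.05. Every adjusted p is from this fit unless the text names the fit over all probe sets, a fit with an array left out or another alternative. The exact permutation test over 3 against 3 arrays cannot go below p = 0.10 and was not used for calls. The fit was tested on simulated data. Of the 42 kinesin symbols 9 were read from s or x sets, whose probes can match several transcripts, KIF22, KIF15 and KIF2B among the mitotic ones. Levels were not compared between genes. Promoters come from a RefSeq table of GRCh38.p14.

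The members and the lists, written from general knowledge, were chosen with earlier results of these data known. Named with array values were all mitotic kinesins but KIF2B, transport kinesins above background and any gene called. Members below background are given by their means, other kinesins by their changes, and other lists by called genes and up to 4 with the smallest p. RACGAP1, CENPE, KIFAP3, KLC1, the transcription regulators and further markers were chosen for their role or after their values were seen. Alternatives were other scalings, priors, weights, probe set rules, a replicate block and leaving out each array.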

Additional observations from a re-analysis of the deposited data

Results flagged for a closer look

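KIF3B, a subunit of the heterotrimeric kinesin, is read in the report from its brightest probe set. One of its other sets, the dimmest of 4 and outside the comparison by gene, was higher with R1881 by 0.40 in the limma fit over all probe sets. It was singled out because it was the kinesin probe set outside the gene comparison that passed the threshold there. All 4 sets were higher by sign.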

How the results depend on the processing

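The difference between the mitotic and transport medians was negative under every alternative tried, whereas the number of mitotic kinesins called changed with the processing. KIF23 alone passed in the fit used above. Mitotic kinesins called lower numbered 2 with re-centred arrays, 4 without dim genes, 5 under a trended robust prior, 2 when the sets of a gene were averaged, 0 on the second brightest set and 0 in each of the 6 leave-outs. A gene with only 1 set kept it under the second brightest rule, as KIF15, KIF18A, KIF20A, KIF20B, KIFC1 and KIF2B did. Without dim genes the calls numbered 757 of only 11049 genes. Over all 18129 genes they numbered 895 under the trended prior, 234 on the second brightest set and 209 to 270 in the leave-outs, against 438 in the fit used. KIF23 was the mitotic gene with a limma adjusted p under 0.05 here, and KIF20B, KIF22 and KIF15 joined it without dim genes and, with KIF18A, under the trended prior. The transport median was 0.0033 with re-centred arrays and -0.017 to 0.013 in the leave-outs, and the mitotic minus transport difference -0.150 to -0.125 in them. By gene, no transport kinesin was called under any alternative. The replicate numbers were not taken as pairs. The deviations of samples with the same number correlated at 0.0921, 0.0633 and 0.0583, each the highest for its sample but all under 0.1. With a replicate block 0 mitotic kinesins and 222 genes in all were called.

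Changes of uncalled genes near 0 took the other sign under some alternatives. KIF26B stood at -0.0067 with re-centred arrays and, after another quantile normalization, at -0.0058, with KIF11 at 8.0e-04. With array weights KIF13A was at 0.014, KIF18B at -0.036 and KIF9 at 0.0043. With the sets of a gene averaged KIF16B was at -0.052, KIF1B at 0.026, KIF3C at 0.050, KIF5B at 0.0083 and KIF9 at 0.0022. On the second brightest set KIF16B was at -0.12, KIF2A at 0.013, KIF3C at 0.057, KIF5B at 0.0067 and KIF9 at 0.063. Without s or x sets KIF2A was at 0.013 and KIF5B at 0.0067. In the leave-outs the ranges were -0.052 to 0.028 for KIF11, -0.060 to 0.050 for KIF13A, -0.022 to 0.088 for KIF13B, -0.083 to 0.14 for KIF18B, -0.017 to 0.078 for KIF1A, -0.052 to 0.088 for KIF26B, -0.035 to 0.013 for KIF3A and -0.060 to 0.035 for KIF9. The cause of these shifts was not tested. The leave-outs of the KIF3B probe set were added after the data were seen.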
